A study of Mus musculus with 10 samples.

Results

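The cortical hem (CH) is a strip of neuroepithelium at the medial edge of the telencephalon that releases Wnt ligands toward the developing hippocampus. The transcripts described here are those of 9 secreted Wnt antagonists, *Frzb*, *Sfrp1*, *Sfrp2*, *Dkk1*, *Dkk2*, *Dkk3*, *Wif1*, *Sostdc1* and *Notum*, out of 52227 genes in the deposited table. All 9 were found by symbol, and all 9 were among the 21664 genes tested, those that reached 10 counts or more in 3 or more libraries. The list was chosen by the level of *Frzb*, which was already known to be higher in the mutant CH of these embryos, so the genotype difference of *Frzb* is given as a description and without a test. Where a count of calls includes *Frzb*, that is what chose the list, and it supports nothing.

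RNA came from the CH of 5 wild-type embryos and 5 *Lmx1a*-/- embryos at embryonic day 13.5, all on a mixed C57Bl6, FVB and CD1 background. The mutants were homozygous for the *drJ* (dreherJ) null allele of *Lmx1a*, which encodes a LIM-homeodomain transcription factor of the CH, and lack Lmx1a function in the whole embryo, not in the CH alone. The CH was cut out by laser capture microdissection, with its borders read from Lmx1a immunostaining of neighboring sections, and the sections of 1 embryo made 1 library. Between 19145952 and 36462780 reads per library were counted on genes. Levels are CPM, counts scaled to library size after TMM normalization, as mean ± SD over 5 embryos, and a difference between genotypes passed where the quasi-likelihood test of edgeR gave a false discovery rate (FDR) under 0.1 over all genes tested.

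Wnt ligands bind Frizzled receptors and the coreceptors Lrp5 and Lrp6 at the cell surface. Antagonists outside the cell act at different points of this step. Secreted Frizzled-related proteins (*Frzb*, *Sfrp1*, *Sfrp2*) and *Wif1* bind the ligands, Dickkopf proteins (*Dkk1*, *Dkk2*) and *Sostdc1* bind the Lrp coreceptors, and *Notum* removes the lipid that ligands need to bind Frizzled. The CH is known as a source of Wnt ligands, and secreted antagonists can limit how far or how strongly such a source acts.

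Promoter sequences (250 bases before to 50 after the start, RefSeq, GRCm38.p6) were at hand for *Frzb*, *Sfrp2*, *Wif1*, *Dkk1* and *Dkk2*, and *Sfrp1*, *Dkk3*, *Sostdc1* and *Notum* are not shown. That of *Frzb* is printed because its transcript stood apart between the genotypes, with CG dinucleotides in capitals (chr2:80447347-80447646, minus strand). Those of *Dkk1* (chr19:30549447-30549746, minus strand) and *Dkk2* (chr3:132085042-132085341, plus strand) are printed for contrast, with TATAAA on the printed strand in capitals.
Frzb: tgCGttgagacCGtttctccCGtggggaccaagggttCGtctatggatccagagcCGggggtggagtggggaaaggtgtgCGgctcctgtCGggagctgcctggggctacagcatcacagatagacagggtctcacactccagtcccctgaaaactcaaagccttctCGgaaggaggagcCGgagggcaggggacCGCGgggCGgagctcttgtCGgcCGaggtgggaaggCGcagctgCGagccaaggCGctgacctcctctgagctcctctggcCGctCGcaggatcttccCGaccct
Dkk1: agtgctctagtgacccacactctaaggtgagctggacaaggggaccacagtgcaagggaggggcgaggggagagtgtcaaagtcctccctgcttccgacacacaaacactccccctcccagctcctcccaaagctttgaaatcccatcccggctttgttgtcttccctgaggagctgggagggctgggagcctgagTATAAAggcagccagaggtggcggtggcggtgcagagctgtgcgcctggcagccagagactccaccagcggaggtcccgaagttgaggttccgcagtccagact
Dkk2: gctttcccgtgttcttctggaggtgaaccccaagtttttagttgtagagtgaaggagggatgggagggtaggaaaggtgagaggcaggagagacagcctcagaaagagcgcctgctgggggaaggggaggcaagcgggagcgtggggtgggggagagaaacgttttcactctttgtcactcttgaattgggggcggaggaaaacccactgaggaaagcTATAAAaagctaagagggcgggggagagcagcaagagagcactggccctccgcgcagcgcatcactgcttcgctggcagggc

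The 3 promoters of the genes that bind ligands held many CG dinucleotides, 20 in *Frzb*, 22 in *Sfrp2* and 25 in *Wif1*, against 9 in *Dkk1*, 11 in *Dkk2* and a median of 7 over all promoters. The GC content of the *Frzb* promoter was 64.7%, against a median of 52.7%. TATAAA on the printed strand began 54 bases before the RefSeq start in *Dkk1* and 32 bases before it in *Dkk2*, and was in 8.32% of all 32851 promoters. By GENCODE M21 *Frzb* begins at 80447625 and *Dkk1* at 30549665, both upstream of their RefSeq starts. Most of the printed *Frzb* bases and the TATAAA of *Dkk1* therefore lie within the genes as GENCODE draws them. The letters CTTTGAT or ATCAAAG, a TCF/LEF motif searched on both strands, were in none of the 5 windows and in 3.73% of all promoters. TAATTA, a core that LIM-homeodomain proteins can bind and which reads the same on both strands, was also in none of the 5 and in 5.29% of all promoters.

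Of the 9 members, 1 passed the threshold, *Frzb*, where 4.02% of all genes tested passed. It was among the genes higher in *Lmx1a*-/- CH, 1.72% of those tested, and none of the members was among the lower ones, 2.29% of those tested. Since *Frzb* chose the list, nothing is read from this count. Of the other 8 members, 0 passed with edgeR's quasi-likelihood test, 3 had an unadjusted p under 0.05 (*Dkk2*, *Wif1* and *Sostdc1*), as did 16.4% of all genes tested, and 2 passed with DESeq2 (*Sostdc1* and *Wif1*), as did 8.15% of all genes tested. The mean was higher in the mutants for 3 of the 9 and lower for 6, with a median log2 fold change of -0.75, where the median of all genes tested was -0.0049. The members' median was -0.09 without wild-type embryo 4, and it was 0.55 with *Xist* and 0.17 with surface epithelium genes as a covariate. In 1 of the 9, again *Frzb*, the libraries of the genotypes did not overlap, as in 4.44% of all genes tested.

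**Figure D1:**
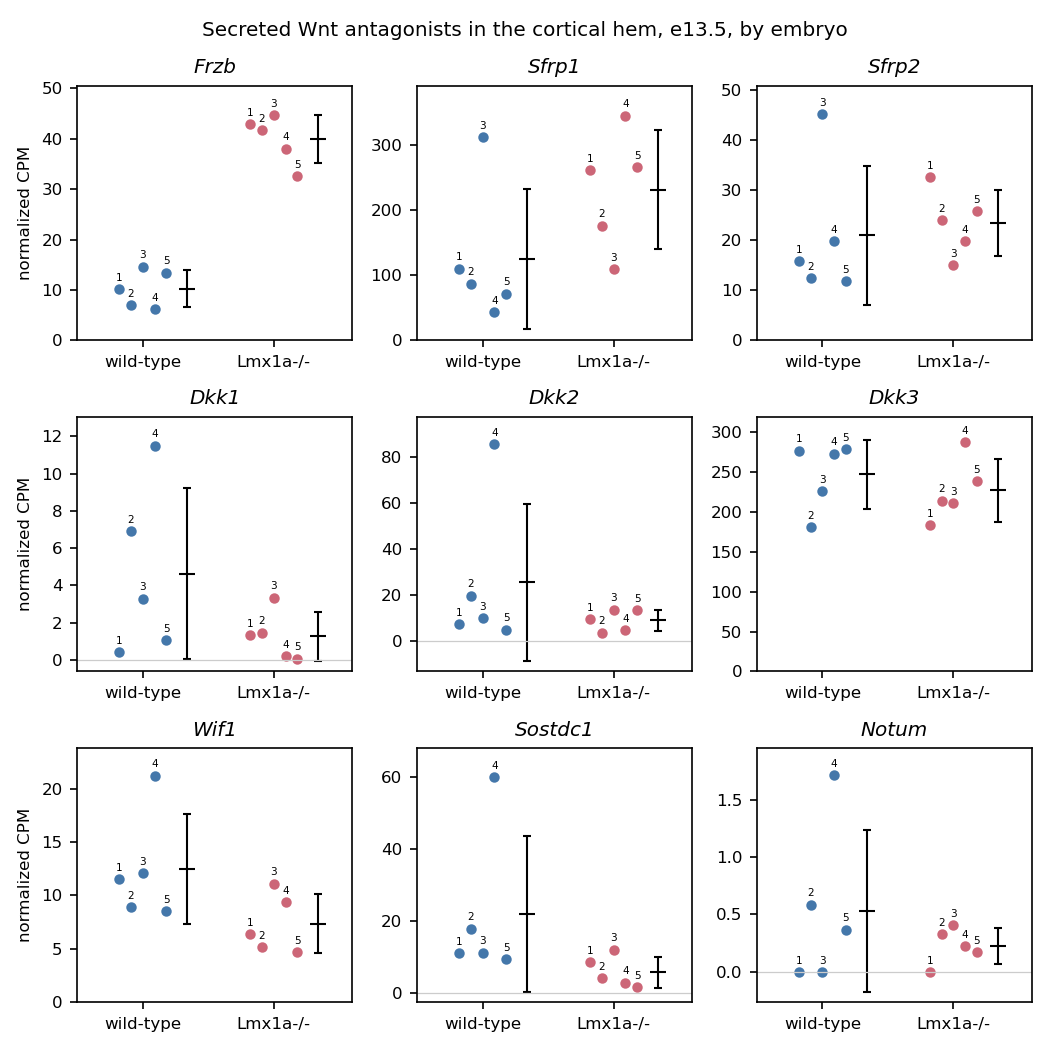
Normalized CPM of the 9 antagonists in each embryo (points, numbered by embryo; vertical axes on linear scales that differ between panels), with mean and SD beside each group of 5. *Frzb* stood at 32.5 CPM or more in every mutant and at 14.6 CPM or less in every wild-type embryo, while the other 8 overlapped, with wild-type embryo 3 or 4 far above the others for *Sfrp1*, *Sfrp2*, *Dkk2*, *Wif1* and *Sostdc1*.

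Some libraries differed in ways that bear on these genes. *Xist*, transcribed from the inactive X chromosome, was at 4399 CPM or more in wild-type embryos 2 to 5 and at 1.15 CPM or less in the mutants and in wild-type embryo 1 (1.01 CPM), and the summed Y-linked transcripts were at 341.3 CPM in wild-type embryo 1, at 384.3 to 451.3 CPM in the mutants and at 0.0588 CPM or less elsewhere. Apart from wild-type embryo 1, genotype and sex therefore cannot be told apart. The mean log2 level of the choroid plexus list was 1.539 to 2.206 in the mutants. It was 1.874 in wild-type embryo 3 and 2.487 to 3.101 in the other wild-type embryos. As a covariate this list nearly follows genotype, so a call lost with it cannot be ascribed to genotype or to choroid plexus tissue. *Lmx1a* itself was transcribed in both genotypes (71.2 ± 18.2 and 114.0 ± 21 CPM), and the counts do not separate the *drJ* transcript from the wild-type one. The CH genes *Rspo2* (500.7 CPM) and *Wnt5a* (380.1 CPM) were abundant in wild-type libraries. In a list of 10 surface epithelium (skin) genes, written after the values were seen, the sum was 1103 CPM in wild-type embryo 4 and 60.5 to 159.7 CPM in the other wild-type libraries.

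*Frzb* (ENSMUSG00000027004, chromosome 2 of GRCm38, 80411970 to 80447625, minus strand, 6 exon blocks) encodes a secreted Frizzled-related protein that binds Wnt ligands. Wild-type embryos 1 to 5 had 10.1, 7.04, 14.6, 6.18 and 13.4 CPM of *Frzb*. *Lmx1a*-/- embryos 1 to 5 had 42.8, 41.7, 44.7, 38.0 and 32.5 CPM. Every mutant lay above every wild-type embryo, and the lowest mutant was embryo 5. The means were 10.3 ± 3.74 and 39.9 ± 4.83 CPM, a 3.89-fold ratio of means and a log2 fold change of 1.95 (SE 0.22). These levels rested on 119 to 497 counts per wild-type library and 768 to 1373 counts per mutant library. Relative to the mean, the mutants varied less than the wild-type embryos, with a coefficient of variation of 12.1% against 36.4%. This was not particular to *Frzb*, as *Sfrp1* (39.2% against 86.0%) and *Sfrp2* (27.9% against 65.8%) showed it too. Among the members only *Dkk1* went the other way (102.8% against 99.1%).

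Wild-type embryo 1, the 1 wild-type library with Y-linked transcripts, had 10.1 CPM of *Frzb*. As a description of the same libraries, the log2 fold change of *Frzb* lay between 1.81 and 2.11 when any 1 embryo was left out and between 1.72 and 2.05 under 17 other settings, among them covariates for surface epithelium (1.80), choroid plexus (1.72) and mesenchyme genes (2.05). With *Xist* as a covariate it was 1.96 with a wider SE of 0.45. The part of sex and of neighboring tissue in the *Frzb* level was not tested beyond these settings. In bulk libraries such as these, fewer cells of a type and less RNA per cell cannot be told apart, and the same holds for more.

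The 5 genes whose profile over the 10 libraries lay nearest to that of *Frzb*, among 16716 genes with a mean of at least 1 CPM, were *Gm45352*, *Slc15a2*, *Dgkb*, *Gm37812* and *Ppp1r1a*. Likeness was the root mean square difference of centered log2 CPM, which was 0.306 for *Gm45352*, 0.388 for *Slc15a2*, 0.402 for *Dgkb* and 0.475 for the other two. The profile spans both genotypes and so holds the genotype difference of *Frzb*, which chose the list. Genes near to it were therefore bound to be higher in the mutants. Their levels describe what was selected, and no separate genotype difference is read from them. The wild-type mean of *Gm45352*, ranked first, was 0.42 ± 0.206 CPM, less than the 0.5 added to CPM before log2. Its mutant mean was 2.58 ± 0.322 CPM, and its log2 fold change was 2.58, against 1.95 for *Frzb*. The added 0.5 narrows differences at so low a level, so the first place of *Gm45352* is not read as a closer likeness. *Slc15a2*, a peptide transporter gene, had 12.9 to 42.2 CPM over the wild-type embryos and 66.3 to 93.1 CPM over the mutants. *Dgkb*, a diacylglycerol kinase gene, had 10.5 ± 1.29 and 30.8 ± 5.14 CPM, and *Ppp1r1a*, a phosphatase inhibitor gene, 16.7 ± 5.53 and 40.8 ± 9.60 CPM. None of the antagonists came as near, the nearest being *Sfrp1* at 0.811.

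Within 500 kb of *Frzb* the annotation has 20 genes, of which 9 were tested and 1 passed. Over all genes tested, 4.02% passed, 2.29% on the lower side, and 4.44% had no overlap of the genotypes. *Pde1a*, a phosphodiesterase gene 282.5 kb away, fell from 24.1 ± 9.39 to 8.86 ± 1.35 CPM (FDR = 0.00765 by edgeR, log2 fold change -1.44, SE 0.24), with every mutant below every wild-type embryo. The 2 protein-coding genes nearest to *Frzb* that were tested did not pass. *Dnajc10* had 134.0 ± 7.67 and 128.7 ± 9.45 CPM (FDR = 0.743, edgeR quasi-likelihood), and *Nckap1* had 290.3 ± 14.2 and 284.9 ± 12.9 CPM (FDR = 0.879, edgeR quasi-likelihood). None of the 9 was higher past the threshold.

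*Sfrp1* (ENSMUSG00000031548, chromosome 8, 23411502 to 23449632, plus strand) encodes a related ligand-binding protein. Wild-type embryos 1 to 5 had 109.9, 86.8, 310.9, 43.3 and 71.4 CPM of *Sfrp1*. *Lmx1a*-/- embryos 1 to 5 had 260.5, 175.9, 108.9, 344.4 and 264.9 CPM. The groups overlapped through wild-type embryo 3, which was above 4 of the 5 mutants, and *Lmx1a*-/- embryo 3, which was level with wild-type embryo 1. The means were 124.5 ± 107.0 and 230.9 ± 90.6 CPM, and the difference did not pass (FDR = 0.344 by edgeR, log2 fold change 0.89, SE 0.45). Without wild-type embryo 3 it passed (log2 fold change 1.56, edgeR quasi-likelihood FDR = 0.0179), and the call therefore depended on that library, which was the highest wild-type library for *Sfrp1*. Without wild-type embryo 4, the lowest, the log2 fold change was 0.66 (edgeR quasi-likelihood FDR = 0.501).

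A transcription factor gene with a profile near that of *Sfrp1*, in a comparison added after the values were seen, was *Sall1* (0.306), at 11.3 to 92.5 CPM in the wild-type and 37.2 to 90.4 CPM in the mutant libraries. *Sall1* was picked for its likeness to *Sfrp1* over both genotypes, so its levels are no separate finding. Over all genes tested, 1.72% were higher past the threshold and 50.6% had a log2 fold change below 0. Of 7 cortical and hippocampal neuroepithelium genes, all had a higher mean in the mutants, with a median log2 fold change of 0.37. In this list 2 passed, *Emx2* (log2 fold change 0.65) and *Fezf2* (1.26). By the same test 3 had an unadjusted p under 0.05 (16.4% of all genes), and 2 passed with DESeq2 (8.15%). The most abundant were *Lhx2* (271.8 CPM in wild-type, 366.4 CPM in mutant libraries), which did not pass, and *Fezf2* (88.3 and 211.9 CPM). The summed level of the 7 genes was 909.7, 679.4, 934.0, 567.7 and 823.2 CPM in wild-type embryos 1 to 5 and 1256, 1257, 938.9, 1089 and 995.2 CPM in mutants 1 to 5. The libraries with the lowest sum in each genotype, wild-type embryo 4 and *Lmx1a*-/- embryo 3, also had the least *Sfrp1*. Wild-type embryo 3 had the highest wild-type sum and the most *Sfrp1* of that genotype. The highest mutant sum was in embryo 2, with 175.9 CPM of *Sfrp1*, while mutant embryo 4, with a sum of 1089 CPM, had the most *Sfrp1* (344.4 CPM). The part of such tissue in the *Sfrp1* level was not tested.

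*Sfrp2* (ENSMUSG00000027996, chromosome 3, 83766321 to 83774316, plus strand) had 15.8, 12.5, 45.2, 19.8 and 11.9 CPM in wild-type embryos 1 to 5. In *Lmx1a*-/- embryos 1 to 5 it had 32.6, 24.1, 15.1, 19.9 and 25.9 CPM. The groups overlapped, and the highest library of all was wild-type embryo 3, as for *Sfrp1* among the wild-type libraries. The means of 21.1 ± 13.9 and 23.5 ± 6.58 CPM did not differ past the threshold (FDR = 0.868 by edgeR, log2 fold change 0.16, SE 0.33). Without wild-type embryo 3 the log2 fold change was 0.65 (edgeR quasi-likelihood FDR = 0.154). An antisense gene, *Gm26771*, overlaps *Sfrp2* and held 83 counts over all 10 libraries, and the strand setting of the counting is not given in the sources used here.

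With wild-type embryos 3 and 4 both left out, the log2 fold change was 1.37 for *Sfrp1* (edgeR quasi-likelihood FDR = 0.0263) and 0.81 for *Sfrp2* (edgeR quasi-likelihood FDR = 0.0916). These libraries were left out because they stood apart for the antagonists themselves, so these values support no difference between the genotypes.

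**Figure D2:**
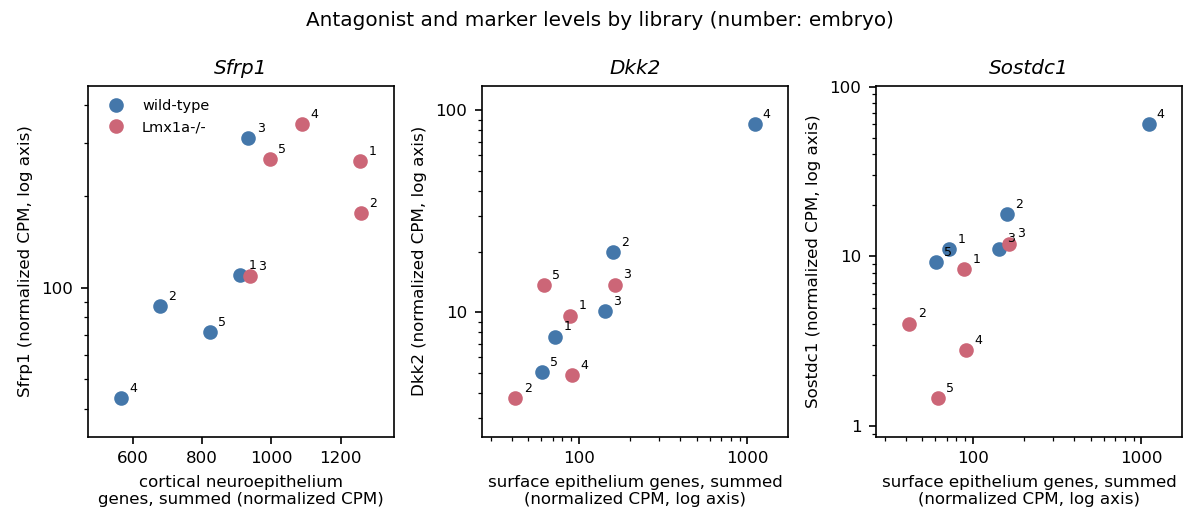
Normalized CPM of *Sfrp1* against the sum of 7 cortical neuroepithelium genes (linear horizontal axis), and of *Dkk2* and *Sostdc1* against the sum of 10 surface epithelium genes (log horizontal axes), in each of the 10 libraries (points numbered by embryo, vertical axes log). *Sfrp1* was lowest in wild-type embryo 4, where the cortical genes summed to 567.7 CPM, and *Dkk2* (85.3 CPM) and *Sostdc1* (59.9 CPM) were highest in the same embryo, where surface epithelium genes summed to 1103 CPM.

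*Dkk1* (ENSMUSG00000024868, chromosome 19, 30545863 to 30549665, minus strand) encodes a coreceptor-binding antagonist and was low. Wild-type embryos 1 to 5 had 0.411, 6.90, 3.29, 11.5 and 1.07 CPM of *Dkk1*. *Lmx1a*-/- embryos 1 to 5 had 1.33, 1.47, 3.34, 0.194 and 0.0696 CPM. The lowest mutant value stood for 2 counts and the highest wild-type value for 221 counts. The groups overlapped, with mutants 4 and 5 below every wild-type embryo and wild-type embryos 2 and 4 above every mutant, and with a coefficient of variation of 99.1% in wild-type and 102.8% in mutant embryos. The means were 4.63 ± 4.59 and 1.28 ± 1.32 CPM (FDR = 0.33 by edgeR, log2 fold change -1.85, SE 0.90). Without wild-type embryo 4 the log2 fold change was -1.19 (edgeR quasi-likelihood FDR = 0.598).

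*Dkk2* (ENSMUSG00000028031, chromosome 3, 132085292 to 132180304, plus strand), of the same family, had 7.58, 19.8, 10.1, 85.3 and 5.06 CPM in wild-type embryos 1 to 5. In *Lmx1a*-/- embryos 1 to 5 it had 9.64, 3.75, 13.7, 4.87 and 13.6 CPM. Wild-type embryo 4 was far above every other library, and the remaining 9 overlapped. The means of 25.6 ± 33.9 and 9.11 ± 4.69 CPM gave a log2 fold change of -1.48 (FDR = 0.30 by edgeR, SE 0.68). Without wild-type embryo 4 the log2 fold change was -0.22 (edgeR quasi-likelihood FDR = 0.865).

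*Dkk3* (ENSMUSG00000030772, chromosome 7, 112116017 to 112159057, minus strand), a Dickkopf relative whose role in Wnt signaling is less settled, was the most abundant member per kb in both genotypes. Wild-type embryos 1 to 5 had 277.1, 180.9, 226.4, 273.2 and 278.6 CPM of *Dkk3*. *Lmx1a*-/- embryos 1 to 5 had 183.6, 214.3, 211.3, 288.1 and 239.0 CPM. Low and high libraries occurred in both genotypes, with coefficients of variation of 17.4% in wild-type and 17.3% in mutant embryos. The means were 247.2 ± 42.9 and 227.3 ± 39.3 CPM (FDR = 0.709 by edgeR, log2 fold change -0.12, SE 0.14).

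*Wif1* (ENSMUSG00000020218, chromosome 10, 121033960 to 121100650, plus strand), which encodes another ligand-binding antagonist, had 11.5, 8.88, 12.1, 21.2 and 8.53 CPM in wild-type embryos 1 to 5. In *Lmx1a*-/- embryos 1 to 5 it had 6.38, 5.16, 11.1, 9.36 and 4.73 CPM. Mutants 1, 2 and 5 were below every wild-type embryo, while mutants 3 and 4 lay within the wild-type range. The means of 12.4 ± 5.15 and 7.35 ± 2.77 CPM did not differ past the threshold (FDR = 0.212 by edgeR, log2 fold change -0.75, SE 0.29). Without wild-type embryo 4 the log2 fold change was -0.48 (edgeR quasi-likelihood FDR = 0.428).

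*Sostdc1* (ENSMUSG00000036169, chromosome 12, 36314139 to 36318452, plus strand) encodes an antagonist of both Wnt and BMP signaling. Wild-type embryos 1 to 5 had 11.0, 17.8, 11.1, 59.9 and 9.27 CPM of *Sostdc1*. *Lmx1a*-/- embryos 1 to 5 had 8.38, 4.02, 11.9, 2.80 and 1.46 CPM. Of the mutants, 4 were below every wild-type embryo, and *Lmx1a*-/- embryo 3 was above 3 of them. The means were 21.8 ± 21.6 and 5.70 ± 4.31 CPM, and the smallest p among the 8 members other than *Frzb* did not pass (FDR = 0.128 by edgeR, log2 fold change -1.93, SE 0.61). Without *Lmx1a*-/- embryo 3 the difference passed (log2 fold change -2.38, edgeR quasi-likelihood FDR = 0.0755), and without wild-type embryo 4 it was -1.10 (edgeR quasi-likelihood FDR = 0.308).

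*Notum* (ENSMUSG00000042988, chromosome 11, 120653788 to 120661175, minus strand), the gene of the ligand-delipidating enzyme, was near the limit of detection. Wild-type embryos 1 to 5 had 0, 13, 0, 33 and 10 counts, and *Lmx1a*-/- embryos 1 to 5 had 0, 6, 12, 8 and 5 counts. Libraries at 0 occurred in both genotypes, where a count of 0 allows up to 3 counts, or 0.0882 to 0.112 CPM in these 3 libraries. The highest library was again wild-type embryo 4, at 1.71 CPM. The log2 fold change was -1.20 (FDR = 0.657 by edgeR, SE 1.15), and -0.06 without wild-type embryo 4, and at this depth no difference was detectable. The antisense genes *Myadml2os* and *Notumos* overlap *Notum* and held 6 and 18 counts over the 10 libraries.

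Wild-type embryo 4, the highest library for *Dkk1*, *Dkk2*, *Wif1*, *Sostdc1* and *Notum*, was also the one with the most surface epithelium transcripts. Of the 10 genes of that list, 9 had a lower mean in the mutants, *Grhl3* being the exception, where 50.6% of all genes tested had a log2 fold change below 0. Of the list 1 passed, *Perp* (25.4 ± 34.0 and 4.33 ± 2.62 CPM, edgeR quasi-likelihood FDR = 0.0913), where 2.29% of all genes tested were lower past the threshold. By the same test 8 of the 10, *Grhl3* among them, had an unadjusted p under 0.05 (16.4% of all genes). With DESeq2 1 passed (8.15% of all genes). The list was written after the values were seen, so these counts only describe it. The median log2 fold change of the list was -2.55. The most abundant over all libraries were the keratin gene *Krt5*, with a wild-type mean of 97.7 ± 157.3 CPM and a mutant mean of 9.11 ± 13.2 CPM, and *Grhl3*, with means of 17.2 ± 12.3 and 40.4 ± 14.3 CPM (edgeR quasi-likelihood FDR = 0.193 and 0.136). The summed level of the list was 42.1 to 164.2 CPM in the mutants, and 5 of its genes were at 0 in *Lmx1a*-/- embryo 2, 4 in embryo 4 and 2 in embryo 5.

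The genes nearest in profile to these members were again looked up after the values were seen. They were *Cdh3* (0.436), *Ttll10*, *Esrp2*, *Wnt9b* and *Grhl1* for *Dkk1*. For *Dkk2* they were *Tns4* (0.303), *Tgm1*, *Edaradd*, *Lamb3* and *Atp8b1*, and for *Sostdc1* they were *Bcam* (0.366), *Spint1*, *Pik3c2g*, *Fermt1* and *Pkp3*. *Cdh3*, a cadherin gene, had a wild-type mean of 17.6 ± 20.1 CPM and a mutant mean of 5.02 ± 4.04 CPM. It was picked for its likeness to *Dkk1* over both genotypes, so these means are no separate finding. Those nearest to *Wif1* were *Kif26b* (0.247), *Parm1*, *Gm49216*, *Gm37080* and *Ctdspl*. With the mean level of the surface epithelium list as a covariate, the log2 fold changes were -0.24 for *Dkk1*, 0.70 for *Dkk2*, -0.24 for *Wif1*, -0.55 for *Sostdc1* and 0.31 for *Notum*, and none of these passed (edgeR quasi-likelihood FDR from 0.649 to 0.973). That of *Frzb* was 1.80.

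**Figure D3:**
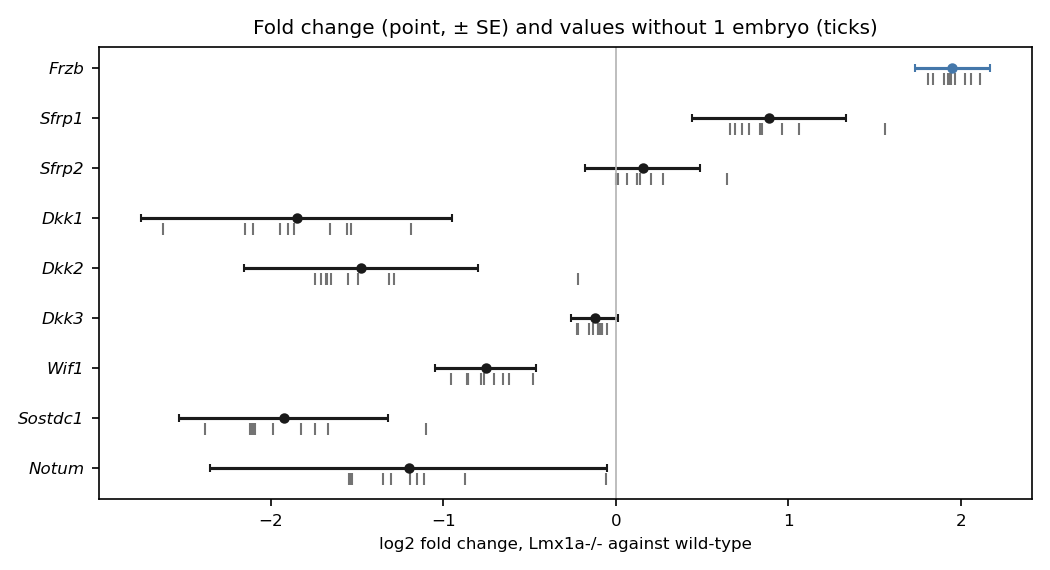
Log2 fold change of each antagonist, *Lmx1a*-/- against wild-type CH (points, with SE as horizontal bars, all 10 libraries; *Frzb*, which chose the list, in blue), and its value without each of the 10 embryos in turn (ticks below). The ticks of *Frzb* lie between 1.81 and 2.11, while those of *Dkk2* reach -0.22 without wild-type embryo 4.

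Levels of different genes were compared as CPM per kb of exon. In wild-type CH the order of the mean levels per kb was *Dkk3* (73.6 ± 12.8), *Sfrp1* (28.5 ± 24.5), *Sostdc1* (12.2 ± 12.1), *Sfrp2* (9.78 ± 6.44), *Dkk2* (6.90 ± 9.14), *Wif1* (5.13 ± 2.12), *Frzb* (3.17 ± 1.16), *Dkk1* (1.91 ± 1.89) and *Notum* (0.222 ± 0.293). Each member overlapped with the next over the 5 libraries. In *Lmx1a*-/- CH the order was *Dkk3* (67.7 ± 11.7), *Sfrp1* (52.8 ± 20.7), *Frzb* (12.3 ± 1.49), *Sfrp2* (10.9 ± 3.05), *Sostdc1* (3.2 ± 2.42), *Wif1* (3.03 ± 1.14), *Dkk2* (2.46 ± 1.26), *Dkk1* (0.527 ± 0.542) and *Notum* (0.0939 ± 0.0647). There *Sfrp1* lay above *Frzb*, and *Sfrp2* above *Sostdc1*, in all 5 libraries without overlap, and the other neighbors overlapped. *Frzb* moved from place 7 to place 3 of 9.

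The summed level of the 9 antagonists per kb was 141.4 ± 33.3 in wild-type and 153.1 ± 26.2 in *Lmx1a*-/- CH, a difference smaller than either SD. *Frzb* made up 1.10% to 3.46% of this sum in wild-type and 6.10% to 11.0% in mutant libraries. *Sostdc1* had a mean share of 8.31 ± 6.66% in wild-type and 2.28 ± 1.97% in mutant libraries. *Dkk3* and *Sfrp1* had the largest mean shares in both, at 53.7 ± 12.6% and 19.5 ± 12.6% in wild-type and at 44.5 ± 5.48% and 33.5 ± 8.66% in mutant CH. The summed level per kb of the Wnt ligands was 406.3 ± 74.8 and 370.6 ± 26.1, so that antagonists stood to ligands as 0.372 ± 0.165 in wild-type and as 0.417 ± 0.0904 in mutant libraries. These sums add up transcripts and do not weigh how strongly each protein acts.

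**Figure D4:**
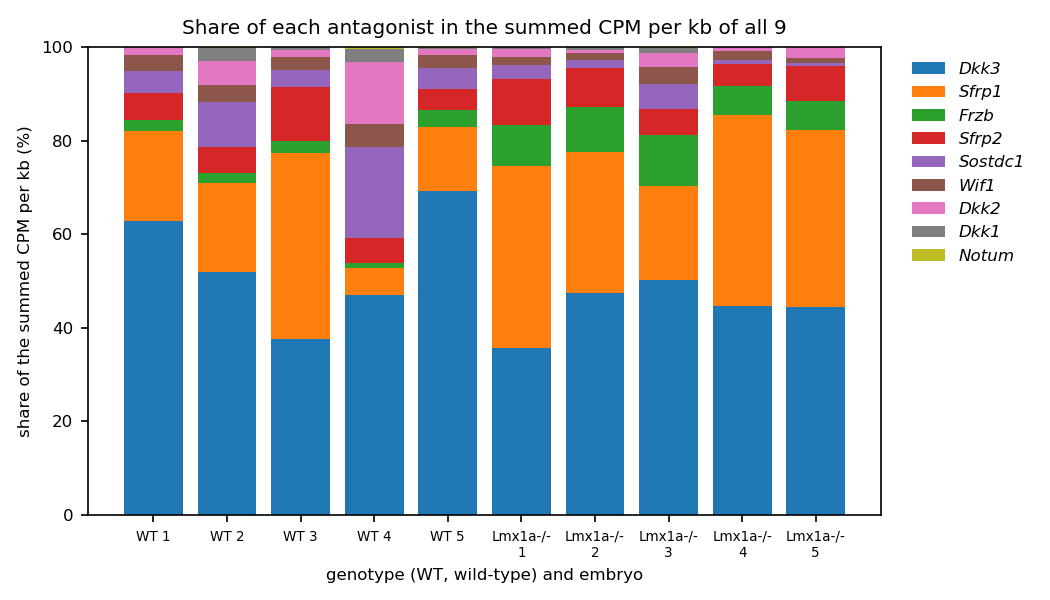
Share (%) of each antagonist in the summed CPM per kb of all 9, 1 bar per library, wild-type (WT) embryos on the left and *Lmx1a*-/- embryos on the right. *Frzb* (green) took 1.10% to 3.46% of the wild-type and 6.10% to 11.0% of the mutant bars, and the largest share of every bar was that of *Dkk3* or *Sfrp1*.

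The other parts of the pathway were given by lists of genes. Of 14 other inhibitors outside the cell or at its surface, 12 were tested and 0 passed with edgeR's quasi-likelihood test (4 at an unadjusted p under 0.05 and 4 with DESeq2, where 16.4% and 8.15% of all genes did), with a median log2 fold change of -0.15. The most abundant by CPM were *Apcdd1* (492.8 CPM in wild-type, 457.2 CPM in mutant CH) and *Draxin* (212.2 and 237.6 CPM), both of which encode Wnt inhibitors. *Znrf3*, whose product removes Frizzled receptors from the surface, had 125.9 ± 15.0 and 158.2 ± 17.0 CPM without overlap of the genotypes (edgeR quasi-likelihood FDR = 0.108).

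Of 17 receptors and coreceptors, all tested, 1 passed, where 4.02% of all genes did, with a median log2 fold change of -0.079. In either direction 5 had an unadjusted p under 0.05 (16.4% of all genes) and 3 passed with DESeq2 (8.15%). *Fzd9*, a Frizzled receptor gene, was higher in the mutants, at 43.3 ± 7.15 CPM against 27.1 ± 5.00 CPM (FDR = 0.0314 by edgeR, log2 fold change 0.68, SE 0.15). Every mutant was above every wild-type embryo, and *Fzd9* passed in 10 of 10 fits without 1 embryo. With *Xist*, choroid plexus, mesenchyme or surface epithelium genes as a covariate it did not pass (0.40, 0.74, 0.77 and 0.63, edgeR quasi-likelihood FDR = 0.656, 0.215, 0.107 and 0.153). Its log2 fold change was 0.41 with Y-linked libraries alone. The most abundant receptor genes by CPM, *Fzd3* (1363 and 1426 CPM) and *Lrp6* (229.9 and 236.0 CPM), did not pass (edgeR quasi-likelihood FDR = 0.856 and 0.827).

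Of 15 tested Wnt ligands of 19 listed, 3 were lower and 0 higher past the threshold, where 2.29% of all genes were lower and 1.72% higher. In either direction 7 had an unadjusted p under 0.05 (16.4% of all genes) and 6 passed with DESeq2 (8.15%). The mean was higher in the mutants for 3 and lower for 12, with a median log2 fold change of -0.88. *Wnt2b* (-1.02), *Wnt9a* (-0.88) and *Wnt5a* (-0.41) passed, in 10, 8 and 2 of 10 fits without 1 embryo in that order. None of them passed with *Xist* as a covariate (-1.28, -1.03 and -0.34, edgeR quasi-likelihood FDR = 0.171, 0.354 and 0.62). With the choroid plexus list as a covariate none passed either (-0.57, -0.23 and -0.29, edgeR quasi-likelihood FDR = 0.308, 0.694 and 0.543). Both covariates nearly follow genotype, so no source is read from these lost calls. *Wnt2b* and *Wnt9a* passed with the mesenchyme list (-1.13 and -1.15, edgeR quasi-likelihood FDR = 0.0604 and 0.0465) and with the surface epithelium list (-0.99 and -1.03, edgeR quasi-likelihood FDR = 0.0756 and 0.0756). *Wnt5a* passed with neither (-0.49 and -0.35, edgeR quasi-likelihood FDR = 0.218 and 0.388). *Wnt8b*, the most abundant ligand by CPM, had 851.1 ± 197.9 and 919.7 ± 71.4 CPM (edgeR quasi-likelihood FDR = 0.738). Of 5 tested genes of ligand secretion and R-spondins, 0 passed (0 at an unadjusted p under 0.05, 0 with DESeq2, median log2 fold change -0.13), with *Rspo3* (599.5 and 792.6 CPM) and *Rspo1* (569.8 and 520.2 CPM) the most abundant.

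Of 12 tested genes that canonical Wnt signaling often activates, 11 had a lower mean in the mutants and 1 passed, where 4.02% of all genes did (median log2 fold change -0.47). In either direction 5 had an unadjusted p under 0.05 (16.4% of all genes) and 4 passed with DESeq2 (8.15%). *Nkd1*, which encodes a feedback inhibitor inside the cell, fell from 117.3 ± 31.3 to 59.5 ± 10.9 CPM (FDR = 0.0084 by edgeR, log2 fold change -0.98, SE 0.17) without overlap. *Nkd1* passed in 10 of 10 fits without 1 embryo. With mesenchyme or surface epithelium genes as a covariate it also passed (-1.06 and -0.91, edgeR quasi-likelihood FDR = 0.0394 and 0.0629). With *Xist* or choroid plexus genes as one it did not (-0.79 and -0.66, edgeR quasi-likelihood FDR = 0.389 and 0.242). The most abundant were *Axin2* (237.5 ± 58.1 and 181.2 ± 32.3 CPM, edgeR quasi-likelihood FDR = 0.261) and *Tnfrsf19* (173.3 and 201.1 CPM).

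**Figure D5:**
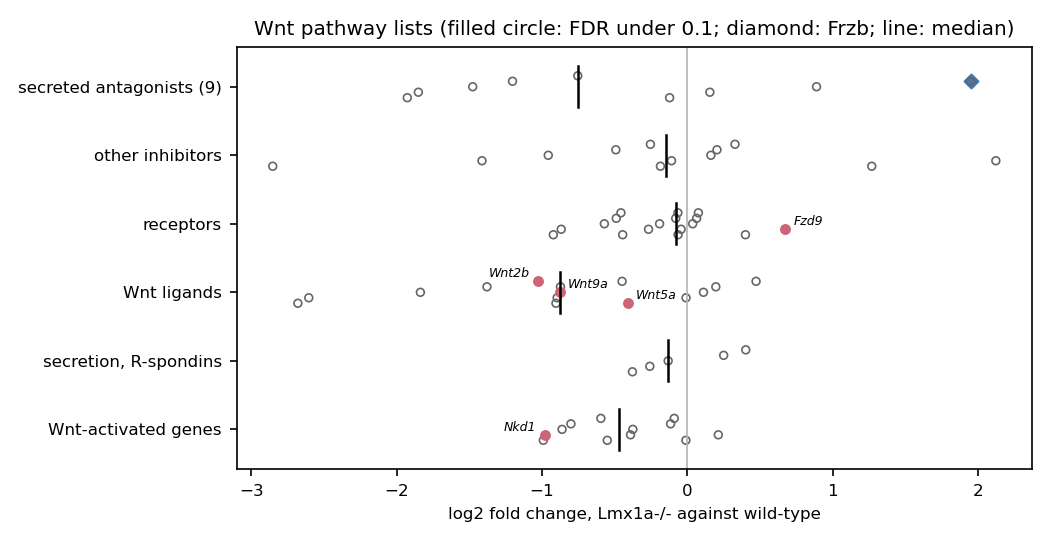
Log2 fold change (*Lmx1a*-/- against wild-type CH) of each tested gene in 6 lists of Wnt pathway genes (circles, filled and named where the FDR was under 0.1; *Frzb*, which chose the list, as a blue diamond), with the median of each list as a vertical line. *Fzd9* is the filled circle on the higher side, and *Wnt2b*, *Wnt9a*, *Wnt5a* and *Nkd1* those on the lower side.

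Marker lists were counted in the same way, and 4.02% of all genes passed in either direction. By edgeR's quasi-likelihood test 6 CH, 7 choroid plexus, 5 mesenchyme and 2 thalamic eminence genes had an unadjusted p under 0.05 (16.4% of all genes). With DESeq2 6, 5, 4 and 2 passed in that order (8.15% of all genes). Of 9 CH genes, 4 were lower (*Lmo2*, *Msx1*, *Wnt2b*, *Wnt5a*) and 1 was higher (*Lmx1a*), with a median log2 fold change of -0.45, and the most abundant were *Rspo2* (500.7 and 385.5 CPM) and *Wnt5a*. Of 10 tested choroid plexus genes, 2 were lower (*Ttr*, *Slc4a5*; median -1.09), and their sum was 120.8 to 466.4 CPM in wild-type and 148.9 to 220.7 CPM in mutant libraries. The most abundant, *Otx2* (130.7 and 109.6 CPM) and *Clic6* (63.1 and 28.3 CPM), did not pass (edgeR quasi-likelihood FDR = 0.679 and 0.151). Of 10 mesenchyme genes, 3 were lower (*Pdgfra*, *Lum*, *Dcn*; median -0.60), with sums of 365.2 to 957.8 and 270.0 to 543.8 CPM. The collagen genes *Col1a2* (145.7 and 113.0 CPM) and *Col1a1* (145.5 and 96.1 CPM) were the most abundant and did not pass (edgeR quasi-likelihood FDR = 0.586 and 0.464). Of 6 tested thalamic eminence genes, 1 was higher (*Lhx5*) and 1 lower (*Lhx1*), with a median of 0.085, and *Tbr1* (72.8 and 64.9 CPM) and *Lhx9* (59 and 60.1 CPM) were the most abundant.

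Among 6 endothelial, 6 neuronal and 5 tested red blood cell genes 0 passed with edgeR's quasi-likelihood test. Their median log2 fold changes were -0.32, 0.14 and -0.91. By that test 1, 1 and 3 of them had an unadjusted p under 0.05, as did 16.4% of all genes tested. With DESeq2 0, 0 and 2 passed, as did 8.15% of all genes tested. The most abundant were *Cdh5* (19 CPM in wild-type, 15.8 CPM in mutant libraries) and *Pecam1* (7.25 and 8.39 CPM), *Map2* (612.4 and 598.1 CPM) and *Dcx* (265.1 and 324.3 CPM), and *Hbb-y* (564.8 and 299.8 CPM) and *Hba-a1* (53.9 and 34.0 CPM). The red blood cell genes, a sign of how much blood a section held, summed to 515.1 to 1285 CPM in wild-type and 190.0 to 478.8 CPM in mutant libraries. With the choroid plexus or the mesenchyme list as a covariate, the log2 fold change of *Sfrp1* was 0.26 or 1.25, that of *Sfrp2* -0.62 or 0.74, and that of *Sostdc1* -2.08 or -1.19, and none of them passed (edgeR quasi-likelihood FDR from 0.38 to 0.905). Beyond these covariates, the part of these tissues in the antagonist levels was not tested.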

How the data were processed

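The deposited table holds read counts per Ensembl gene. Per the labels and the study's methods, the authors checked reads with FastQC 0.11.8, trimmed them with Trimmomatic, aligned them to GRCm38 with STAR 2.7.1a, made the counts with HTSeq 0.11.2 and deposited them without normalization. The strand setting is not given in the sources used here. Of 52508 rows in the table, 281 repeated another exactly and were dropped, and 52083 of 52227 genes had a symbol and position (GENCODE M21). Library totals lay between 19145952 and 36462780 counts.

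The members and gene lists were chosen with earlier results of these data known. The genes named are the 9 members, of each other list its called genes (at most 5) and its 2 most abundant by the mean over all libraries, the 5 nearest in profile to *Frzb*, and genes within 500 kb of it. The lists are other inhibitors, receptors, ligands, secretion, Wnt-activated genes, CH, choroid plexus, mesenchyme, endothelium, cortex, thalamic eminence, neurons, red blood cells, sex-linked transcripts (1 of 5 passed, *Xist*, lower in the mutants; most abundant *Xist* and *Kdm5d*) and surface epithelium. *Znrf3*, *Sall1*, *Cdh3* and the genes nearest in profile to members other than *Frzb* were named after their values were seen. An item that the rule names is not reported here. Genes that reached 10 counts in 3 or more libraries were compared in R 4.3.3 with edgeR 4.0.16 (TMM, quasi-likelihood test, Benjamini-Hochberg FDR under 0.1, all 10 libraries, no covariate). The SE is the fold change over the square root of F, and profiles used log2 of CPM plus 0.5. Alternatives were other normalizations, filters and thresholds, the likelihood ratio test, DESeq2 1.42.0, covariates and left-out libraries. The quasi-likelihood fit was also run on simulated counts, and the outcome of that run is not used here. Each embryo is a separate animal.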

Additional observations from a re-analysis of the deposited data

Results flagged for a closer look

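In each of 18 groups (9 antagonists in 2 genotypes, 5 embryos each), the highest and the lowest library were set against the others. This used Dixon's criterion at the 95% level on CPM that were not log-transformed. About 1 of 20 groups would pass by chance if the values followed a normal distribution. That was not checked, and wild-type CPM varied widely, so no excess over chance is read from the count. In 5 of the 18 groups a library stood apart, each time wild-type embryo 3 or 4, so the 5 are not separate events. Wild-type embryo 3 had 310.9 CPM of *Sfrp1*, where the other 4 had 43.3 to 109.9 CPM, and 45.2 CPM of *Sfrp2*, where the others had 11.9 to 19.8 CPM. Wild-type embryo 4 had 85.3 CPM of *Dkk2* (others 5.06 to 19.8 CPM), 21.2 CPM of *Wif1* (others 8.53 to 12.1 CPM) and 59.9 CPM of *Sostdc1* (others 9.27 to 17.8 CPM). No library of *Frzb* stood apart in either genotype.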

How the results depend on the processing

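The number of antagonists past the threshold, 1 with all libraries, was 3 with DESeq2 (*Frzb*, *Sostdc1*, *Wif1*), 2 with the likelihood ratio test and 2 without a filter (*Sostdc1* added in both), 3 without wild-type embryos 3 and 4 (left out because they stood apart for these genes, so the count supports nothing), and 0 with the *Xist* covariate, where the log2 fold change of *Frzb* was 1.96 with SE 0.45. It was 1 to 2 without any 1 embryo. These counts include *Frzb*, which chose the list, and nothing is read from its part. *Sfrp1* was added without wild-type embryo 3 and *Sostdc1* without *Lmx1a*-/- embryo 3. Over all genes, 870 calls became 179 with the choroid plexus, 251 with the mesenchyme, 31 with the *Xist* and 286 with the surface epithelium covariate, 130 with libraries that held Y-linked transcripts alone, 1766 with DESeq2, 1360 with the likelihood ratio test, 448 at an FDR under 0.05, and 451 to 1059 without any 1 embryo, fewest without *Lmx1a*-/- embryo 4.

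The log2 fold change changed sign for *Dkk1* (1.62 with Y-linked libraries alone, 1.71 with *Xist*), *Dkk2* (0.26, 0.42, and 0.70 with surface epithelium), *Notum* (5.19 with *Xist*, 0.31 with surface epithelium) and *Sfrp2* (-0.62 with choroid plexus). None of these values passed, and the cause was not tested. *Notum* had too few counts for a fit to Y-linked libraries alone or with a minimum of 1 CPM in 5 libraries, and DESeq2 gave it no adjusted p.

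Embryo numbers did not pair the samples (correlation of same-numbered deviations -0.136 to 0.033), and in no case was the same-numbered mutant the best match. With the number as a block, 601 genes and 2 antagonists passed, *Wif1* (-0.76, edgeR quasi-likelihood FDR = 0.0961) being added to *Frzb*, while the ligands *Wnt9a* and *Wnt5a* did not pass (edgeR quasi-likelihood FDR = 0.111 and 0.172). Depth limits *Notum* and *Dkk1*, with as few as 0 and 2 counts in a library. The covariate for surface epithelium, the newer dispersion method (legacy = FALSE) and leaving out wild-type embryos 3 and 4 were chosen after seeing the data.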
